A study of Homo sapiens with 16 samples.

Results

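The enzymes that build squalene from acetyl-CoA by way of mevalonate were followed in MCF10A cells over 45 h of treatment with CP724,714. The members are 8 genes of the route, namely ACAT2, HMGCS1, MVK, PMVK, MVD, IDI1, FDPS and FDFT1. Every row of the deposited table with one of these symbols was kept. Each gene had 1 probe, so 8 of the 20589 rows were members, and all 8 were among the 11957 probes that passed the filter on dim values and were tested. MCF10A cells are human breast epithelium, nontransformed and here not engineered to over express HER2, and CP724,714 is a small molecule that inhibits the HER2 kinase. The cells were grown in serum-free Ham's F-12 medium with insulin, epidermal growth factor, hydrocortisone and other supplements, and RNA came from parallel plates every 3 h from 0 to 45 h, with 1 Illumina human Ref8v2 bead array for each of 16 time points. The 0 h array is from untreated cells, and the other 15 arrays are from cells with the inhibitor at 1 µM. No time point had a replicate array, no series without inhibitor was analysed here, and the medium was changed when treatment began, so inhibitor, medium change and time in culture cannot be told apart.

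The mevalonate route supplies the carbon of cholesterol and of the isoprenoids that are attached to proteins or become part of ubiquinone and dolichol. Acetyl-CoA units are joined and reduced to mevalonate, mevalonate is phosphorylated and decarboxylated to isoprene units, and these are condensed to farnesyl diphosphate, from which squalene is made. In animal cells transcription of these enzymes is governed largely by the SREBP factors, which are held inactive when membrane sterol is plentiful, and which bind sterol elements near promoters, usually beside sites for NF-Y and Sp1. Epithelial cells that divide in medium without serum lipoproteins rely on the route for membrane sterol.

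The promoter sequences of the members were searched for these sites, because the genes of the route are known as a co-regulated set. RefSeq windows of GRCh38.p14, from 250 bases before to 50 bases after the start of transcription, were matched by symbol for 6 of the 8 members, with 2 windows for HMGCS1, 3 for IDI1 and 1 for each of the others. No window was matched for ACAT2 and FDFT1. On both strands, the NF-Y box CCAAT was found in windows of 5 of the 6 genes and in 6 of 9 windows, against 34.61% of all 35116 windows of this length. PMVK, with 1 window, was the gene with no match, and HMGCS1 and IDI1 each had 1 window with no match. The Sp1 box GGGCGG was found in all 9 windows, against 44.95% of all windows. The sterol element core TCACNCCAC was in 0 of 9 windows, against 1.128% of all, and the E-box CACGTG was in 0 of 9, against 7.256% of all. A match is only a run of letters and no match means only that these letters are not in these windows. The 150 bases just before the start are printed for 1 window of each gene, the one with the most NF-Y boxes. For HMGCS1 and IDI1 this choice sets in part how they differ from PMVK. They run 5′ to 3′ on the strand of the gene, and capitals mark NF-Y boxes (CCAAT or ATTGG) and Sp1 boxes (GGGCGG or CCGCCC). In IDI1 an NF-Y box on each strand overlaps in a single run of capitals. The positions are chr5:43313413-43313562 (minus strand) for HMGCS1, chr12:109573644-109573793 (plus) for MVK, chr1:154936720-154936869 (minus) for PMVK, chr16:88663092-88663241 (minus) for MVD, chr10:1048887-1049036 (minus) for IDI1 and chr1:155308716-155308865 (plus) for FDPS.
HMGCS1: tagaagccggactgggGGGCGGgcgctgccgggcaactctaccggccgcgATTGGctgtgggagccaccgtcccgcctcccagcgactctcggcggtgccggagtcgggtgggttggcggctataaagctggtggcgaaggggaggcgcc
MVK: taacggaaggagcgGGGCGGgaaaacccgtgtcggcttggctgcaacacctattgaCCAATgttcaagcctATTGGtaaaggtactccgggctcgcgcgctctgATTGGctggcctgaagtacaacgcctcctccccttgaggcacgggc
PMVK: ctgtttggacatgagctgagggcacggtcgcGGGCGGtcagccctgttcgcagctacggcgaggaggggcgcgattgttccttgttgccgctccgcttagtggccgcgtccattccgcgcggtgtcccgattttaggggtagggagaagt
MVD: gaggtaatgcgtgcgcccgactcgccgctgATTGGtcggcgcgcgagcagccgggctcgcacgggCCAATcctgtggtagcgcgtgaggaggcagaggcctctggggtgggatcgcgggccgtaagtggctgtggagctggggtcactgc
IDI1: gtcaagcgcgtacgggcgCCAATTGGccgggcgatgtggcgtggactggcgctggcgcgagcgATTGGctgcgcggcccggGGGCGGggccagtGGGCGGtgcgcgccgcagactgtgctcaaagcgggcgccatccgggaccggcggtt
FDPS: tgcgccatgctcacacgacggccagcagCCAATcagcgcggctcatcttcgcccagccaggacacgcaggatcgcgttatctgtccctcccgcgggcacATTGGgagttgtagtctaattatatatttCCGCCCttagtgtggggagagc

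**Figure D1:**
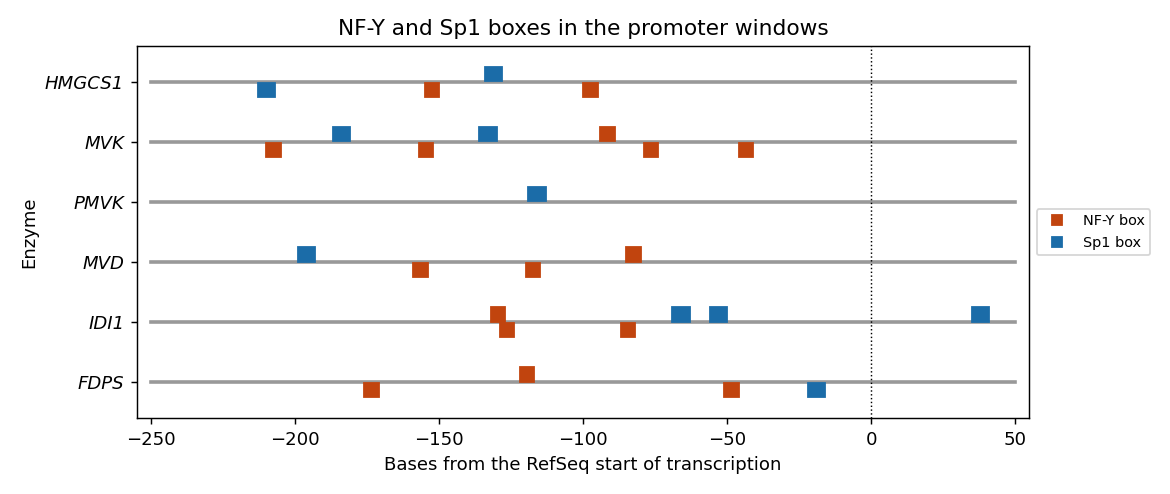
Positions of NF-Y boxes (CCAAT) and Sp1 boxes (GGGCGG) in the 300-base RefSeq window of 6 mevalonate enzymes, in bases from the start of transcription (dotted line), with boxes on the strand of the gene above the grey line and boxes on the other strand below it. Where a gene has more than 1 window, the one with the most NF-Y boxes was drawn. The window of PMVK holds an Sp1 box and no NF-Y box, and the other 5 windows hold both. HMGCS1 and IDI1 each have another window, not drawn, that holds no NF-Y box.

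The arrays were alike in signal. The median deposited intensity of an array lay between 210 and 254, and 50.1% to 52.9% of rows (10325 to 10889) were detected at p under 0.05. Precision is limited by the number of arrays. Of 8 mammary epithelial marker genes, 7 passed the filter on dim values, and 7 of their probes, for KRT5, KRT17, KRT18, KRT8, CDH1 and EPCAM, were detected on all 16 arrays, whereas TP63 was detected on 10 and KRT14 on 1. Of the markers of other cell types, none of the 5 fibroblast genes was detected on any array. Among the leukocyte genes PTPRC was detected on 5 arrays and CD14 on 12, and the endothelial gene PECAM1 was detected on 15. CD14 and PECAM1 rose from 6 and 9 h to 12 and 15 h, by 0.83 each on the log2 scale (adjusted p = 0.00623 and 0.00554, limma), to levels of at most 7.83 and 7.61 in the series. From 24 to 33 h to 36 to 45 h CD14 rose by 1.03 and TP63 by 1.16, and from 0 to 9 h to 36 to 45 h CD14 rose by 1.78, TP63 by 1.77 and PECAM1 by 0.85. Among the epithelial keratins KRT17 rose by 1.10 and KRT5 by 0.34 from 0 and 3 h to 6 and 9 h. By 12 and 15 h KRT17 had fallen by 0.56 and TP63 had risen by 0.80. From 24 to 33 h to 36 to 45 h KRT17 rose by 0.73 and 1 probe of KRT18 fell by 0.55. From 0 to 9 h to 36 to 45 h KRT17 rose by 0.69, that probe of KRT18 fell by 0.66 and its other probe rose by 0.26. The part of these markers in the changes of the enzymes was not tested. CD3E, CDH5 and VWF were detected on no array. Between neighbouring arrays, 655 tested probes differed by at least 1.7-fold from 0 to 3 h, 915 from 3 to 6 h, 285 from 6 to 9 h, 897 from 9 to 12 h and 775 from 33 to 36 h, and between 50 and 168 at each other step. The file does not name the chip of an array, and the part of the chip in these steps was not tested.

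All 8 enzymes were detected on all 16 arrays, with a highest detection p of 0.0113 for MVK, the dimmest member. Levels below are log2 normalized intensities after background correction, so a difference of 1 is a 2-fold difference, and levels are compared between arrays of 1 probe and never between probes. The highest array was 0 or 3 h for every member, and the share of all tested probes with their highest array there was not counted. The ratio of the highest to the lowest array had a median of 4.09 over the members, taken on the log2 scale. It was 7.0 for HMGCS1, 5.56 for IDI1, 5.05 for MVD, 4.77 for MVK, 3.50 for ACAT2, 3.09 for FDPS, 2.13 for FDFT1 and 1.77 for PMVK. For HMGCS1, IDI1 and FDFT1 the lowest array was 9 h, for MVD it was 12 h, for FDPS 39 h, and for ACAT2, MVK and PMVK 45 h. A smooth curve over the whole series, a natural cubic spline with 3 degrees of freedom, was tested with the moderated F-test of limma. At an adjusted p under 0.05 it called 6 of the 8 as time-dependent, against 54.7% of all tested probes. The adjusted p was 3.71e-07 for ACAT2, 1.28e-05 for PMVK, 1.5e-05 for FDPS, 1.75e-05 for MVD, 0.00232 for FDFT1 and 0.0172 for MVK. HMGCS1, with an adjusted p of 0.0729, and IDI1, with 0.228, had the largest ratios and were not called by this smooth curve. The ratio of IDI1 rests on its 9 h array and was 2.79 without it, less than those of MVD, MVK, ACAT2 and FDPS. With 5 degrees of freedom, all 8 were called, against 6726 of all 11957 tested probes. The count was 4 without the 0 h array, when MVK and FDFT1 were lost, and 8 without the 9 h array. Those fits called 6531 of 11883 and 6509 of 11907 tested probes.

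**Figure D2:**
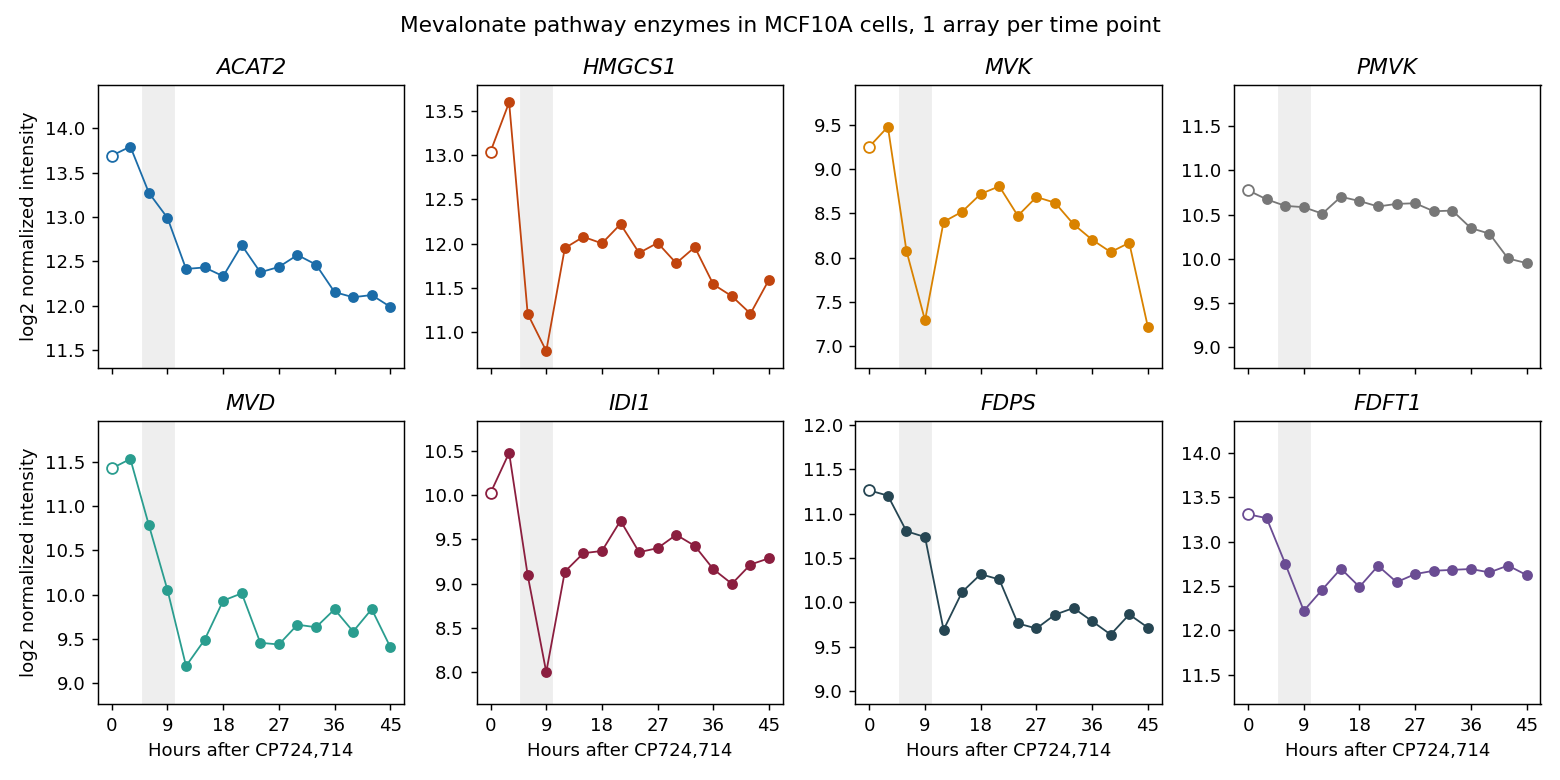
Log2 normalized intensity of the 8 enzymes against hours after CP724,714, with 1 array per point, an open circle for the untreated 0 h array and grey shading over 6 and 9 h. Every panel spans the same number of log2 units, and the lines of HMGCS1, MVK and IDI1 have a sharp low at 9 h while that of PMVK is at most 0.26 below its 0 h level until 33 h.

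The early hours were compared first, as the mean of 6 and 9 h against the mean of 0 and 3 h. In these hours 7 of the 8 enzymes fell and 0 rose, against 11.5% of all tested probes that fell and 13.3% that rose at an adjusted p under 0.05 (limma, fit of 8 pairs of neighbouring time points). The median log2 change was -0.93 over the members and -0.0073 over all tested probes. From 3 to 6 h, and again from 6 to 9 h, the level of all 8 members was lower on the later array. The share of all tested probes that were lower at both steps was not counted. The pairs are neighbouring time points and not replicates of a condition, and in RNA from whole cultures fewer cells that express a gene and less RNA per cell cannot be told apart.

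HMGCS1, which condenses acetoacetyl-CoA with acetyl-CoA to HMG-CoA, had the largest early change of the 8. Its deposited intensity was 8268 at 0 h, 11861 at 3 h, 2445 at 6 h and 1919 at 9 h, and its log2 level was 13.04, 13.59, 11.21 and 10.79. Both later arrays were thus far under both earlier ones, and the 9 h level was 21.0% of the 0 h level. The log2 change between the pairs was -2.32 ± 0.17 (SE), a 4.99-fold fall (adjusted p = 2.26e-07, limma), which ranked 14 by size among the 11957 tested probes. ACAT2, the cytosolic thiolase that makes acetoacetyl-CoA for the step before, had log2 levels of 13.69, 13.80, 13.27 and 12.99 at 0, 3, 6 and 9 h. Its early fall was smaller, 0.61 ± 0.11 on the log2 scale or 1.53-fold (adjusted p = 0.000564, limma), and its pairs did not overlap either. How many of all tested probes had pairs that did not overlap was not counted.

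The enzymes that turn mevalonate into isoprene units did not move alike. MVK, the kinase that adds the first phosphate to mevalonate, had log2 levels of 9.25, 9.48, 8.08 and 7.29 at 0, 3, 6 and 9 h, and its deposited intensity at 9 h was 337, not far above the level of the negative control beads (166 to 199 across arrays). MVK fell by 1.68 ± 0.26 on the log2 scale, or 3.20-fold (adjusted p = 0.000202, limma). PMVK, the kinase that adds the next phosphate, had 10.77, 10.67, 10.60 and 10.58. The change of PMVK, -0.13 with a 95% interval of -0.33 to 0.07, did not pass the test (adjusted p = 0.347, limma), and the interval leaves out changes of the size seen for MVK. MVD, which decarboxylates mevalonate diphosphate to isopentenyl diphosphate, had 11.43, 11.53, 10.78 and 10.05 and fell 2.09-fold (log2 change -1.06 ± 0.19, adjusted p = 0.000628, limma), with a log2 change of -0.70 without the 9 h array. IDI1, which interconverts the isoprene units isopentenyl and dimethylallyl diphosphate, had 10.02, 10.48, 9.09 and 8.0. The level of IDI1 at 9 h was 24.6% of that at 0 h, and the pairs differed 3.25-fold (log2 change -1.70 ± 0.25, adjusted p = 0.000112, limma).

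Both enzymes at the end of the route fell as well. FDPS, which condenses isoprene units to farnesyl diphosphate, had log2 levels of 11.26, 11.20, 10.80 and 10.74 at 0, 3, 6 and 9 h. It fell by 0.46 ± 0.13 (adjusted p = 0.0121, limma), a call that was lost without the 0 h array, without the 9 h array and in a fit of the 4 arrays alone (adjusted p from 0.00481 to 0.0752 over 24 alternatives). FDFT1, the squalene synthase that commits farnesyl diphosphate to sterols, had 13.31, 13.27, 12.75 and 12.22 and fell 1.74-fold (log2 change -0.80 ± 0.13, adjusted p = 0.000281, limma). For both genes the lower pair lay wholly under the upper pair. How often the pairs of other tested probes lay apart in this way was not counted.

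**Figure D3:**
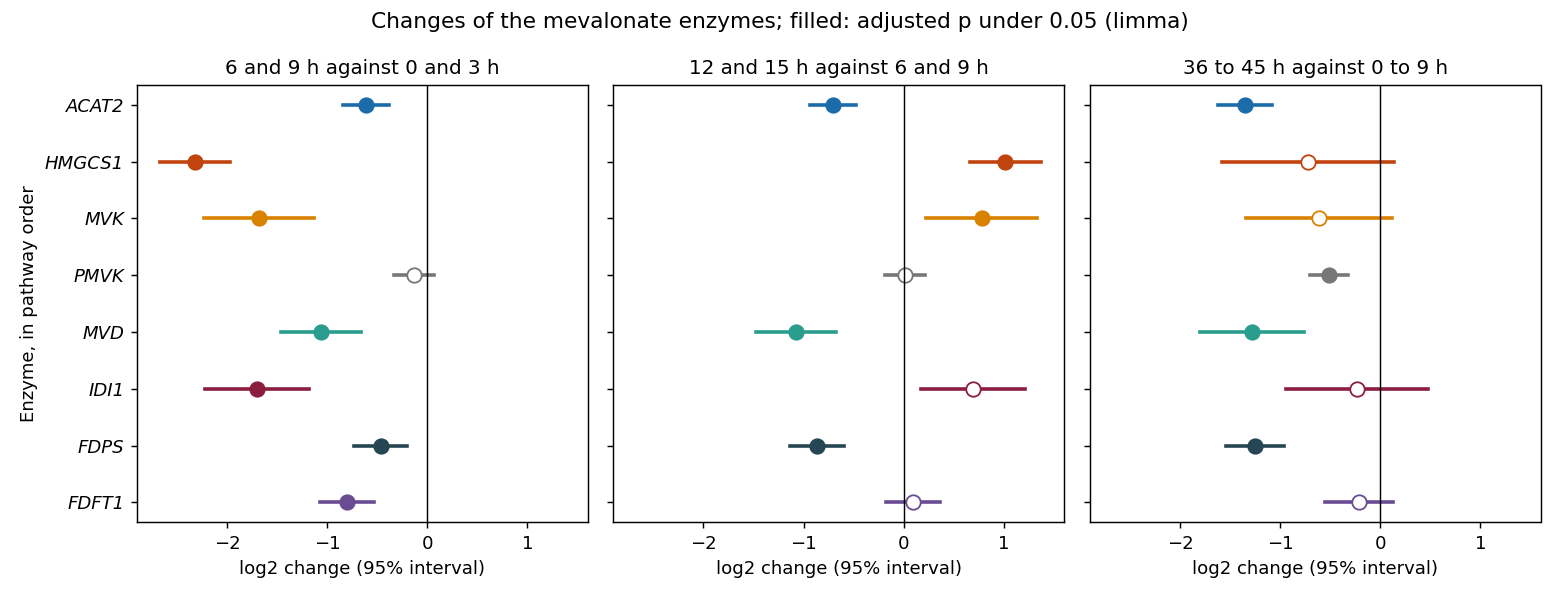
Log2 change of each enzyme, in pathway order from top to bottom, with its 95% interval (bar) in 3 comparisons from limma, filled where the adjusted p was under 0.05. In the first panel every enzyme but PMVK lies left of 0 and is filled, in the second HMGCS1 and MVK are filled on the right and ACAT2, MVD and FDPS on the left, and in the third ACAT2, PMVK, MVD and FDPS are filled on the left.

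The next pair, 12 and 15 h, was then compared with 6 and 9 h, to see how the early falls continued. The enzymes went in opposite directions. Of the 8, 2 rose, against 11.2% of all tested probes, and 3 fell, against 10.5% (adjusted p under 0.05, limma). The 2598 calls over all probes became far fewer without the 6, 12 or 15 h array, each of which leaves a pair with 1 array. Leaving out the 9 h array does so too, and the number of calls then changed little. The steps from 9 to 12 h showed the split on single arrays, and this was a step at which many other probes changed too. HMGCS1, IDI1 and MVK were higher at 12 h than at 9 h by 1.16, 1.13 and 1.11 on the log2 scale, and FDFT1 by 0.24, while FDPS was lower by 1.05, MVD by 0.86, ACAT2 by 0.58 and PMVK by 0.07.

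HMGCS1 rose 2.02-fold from 6 and 9 h to 12 and 15 h, with log2 levels of 11.95 and 12.08 on the later arrays (log2 change 1.02 ± 0.17, adjusted p = 0.000581, limma). This was 43.8% of its early log2 fall, and the later pair remained under both arrays of 0 and 3 h. MVK, at 8.40 and 8.52, rose by 0.78 ± 0.26 (adjusted p = 0.0431, limma), 46.2% of its early fall. The call on MVK was held in 11 of 24 alternatives, with adjusted p from 0.0147 to 0.366, and the change was 0.38 without the 9 h array and 1.17 without the 6 h array. IDI1, at 9.13 and 9.34, was 0.69 ± 0.25 higher than at 6 and 9 h and was not called (adjusted p = 0.055, limma). It was called in 5 of 24 alternatives, among them median scaling, and the difference was 0.14 without the 9 h array. FDFT1, at 12.46 and 12.70, differed by 0.09 with a 95% interval of -0.18 to 0.37, and PMVK, at 10.51 and 10.70, by 0.01 with an interval of -0.19 to 0.22.

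ACAT2, MVD and FDPS fell further over the same hours. ACAT2 was at 12.41 and 12.43, MVD at 9.20 and 9.49, and FDPS at 9.69 and 10.12, each under both arrays of 6 and 9 h. The share of all tested probes that did so was not counted. The log2 changes were -0.71 ± 0.11 for ACAT2 (adjusted p = 0.000322), -1.08 ± 0.19 for MVD (adjusted p = 0.000982) and -0.87 ± 0.13 for FDPS (adjusted p = 0.000213, all limma). The early changes of the same genes had been -0.61, -1.06 and -0.46. At 12 h MVD stood at 21.3%, FDPS at 33.6% and ACAT2 at 41.2% of the 0 h level. All 3 were called in each of 24 alternatives, and the change of MVD was -0.71 without the 6 h array.

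The courses of the members were compared over the 16 arrays by Pearson correlation. HMGCS1, MVK and IDI1 correlated with each other at r from 0.837 to 0.905, and ACAT2, MVD and FDPS at r from 0.904 to 0.934. The 9 pairs across these sets had r from 0.314 to 0.576. FDFT1 stood between the sets, with r of 0.844 to IDI1, 0.786 to HMGCS1, 0.773 to MVD, 0.699 to MVK, 0.639 to ACAT2 and 0.575 to FDPS. Spearman's rho of FDFT1 to these genes ran from 0.329 for HMGCS1 to 0.588 for MVD. PMVK belonged to neither set, with r from 0.217 to 0.630 to the other members. By Spearman's rho the sets were less distinct, since MVK and PMVK (0.738) and HMGCS1 and PMVK (0.685) were above ACAT2 and MVD (0.662). All 28 pairs of members ranged from 0.217 to 0.934 in r. The sets were formed after the values were seen, the probes share the same 16 RNA samples, and the correlations are given as a description.

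Within 12 to 33 h, 1 comparison was made and no member was called in it. Its spread includes the early swing, and the 95% interval of HMGCS1 was -1.01 to 0.71. Between 24 to 33 h and 12 to 21 h, 0 of 8 were called by limma in a fit of 4 groups of 4 neighbouring time points, with 0 at an unadjusted p under 0.05, against 0.0251% of all tested probes called. In these hours HMGCS1 lay between 11.78 and 12.22, MVK between 8.38 and 8.80, IDI1 between 9.13 and 9.71 and FDFT1 between 12.46 and 12.73. ACAT2 lay between 12.33 and 12.68, MVD between 9.20 and 10.02, FDPS between 9.69 and 10.32 and PMVK between 10.51 and 10.70. Apart from PMVK, whose level at 15 h was 95.03% of that at 0 h and above that at 3 h, each member was lower on all 8 of these arrays than at both 0 and 3 h. How many of all tested probes did the same was not counted. The mean and SD over the 8 arrays were 11.99 ± 0.13 for HMGCS1, 12.46 ± 0.11 for ACAT2, 12.61 ± 0.10 for FDFT1 and 10.60 ± 0.06 for PMVK. The SD was largest for MVD, 9.60 ± 0.27, and FDPS, 9.96 ± 0.25, both of which were highest at 18 and 21 h. From 21 to 24 h, 7 members were lower and 1 was higher, with a median log2 step of -0.33. The share of all tested probes that were lower at this step was not counted.

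The last hours, 36 to 45 h, were compared with 24 to 33 h. Of the 8 enzymes 2 fell and 0 rose, against 18.7% of all tested probes that fell and 19.3% that rose. PMVK, which was not called in the early hours, was one of them. Its log2 levels were 10.35, 10.28, 10.00 and 9.95 at 36, 39, 42 and 45 h, all below the lowest earlier array at 10.51, and it fell by 0.44 ± 0.09 or 1.35-fold (adjusted p = 0.00105, limma). ACAT2 had 12.15, 12.10, 12.12 and 11.99, also below every earlier array, and fell by 0.37 ± 0.13 (adjusted p = 0.0298, limma). How many of all tested probes had these last arrays below every earlier one was not counted. The call on ACAT2 was lost when any one of the 27, 30, 33, 39, 42 and 45 h arrays was left out, with adjusted p up to 0.0801 and down to 0.00011 over 24 alternatives. HMGCS1 had 11.54, 11.41, 11.21 and 11.59, again all under its 12 to 33 h levels, but the spread of this fit includes its early swing and it was not called (log2 change -0.47 ± 0.41, adjusted p = 0.399, limma). With only the 8 arrays of this comparison in the fit, 5 members were called, HMGCS1, MVK and IDI1 in addition. That fit called 5811 of all 11957 tested probes. MVK had 8.20, 8.06, 8.17 and 7.22, and its 45 h array, with a deposited intensity of 282, was 0.95 below that of 42 h. MVD (9.84, 9.59, 9.84 and 9.41), FDPS (9.79, 9.64, 9.86 and 9.72) and FDFT1 (12.69, 12.65, 12.73 and 12.62) were not called, with log2 changes of 0.12, -0.07 and 0.04.

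The last 4 time points were also compared with the first 4. ACAT2, MVD, FDPS and PMVK fell, 4 of 8 members, and 0 rose, against 15% of all tested probes that fell and 16.2% that rose. The median log2 change was -0.67 over the members and -0.02 over all tested probes. ACAT2 fell 2.55-fold (log2 change -1.35 ± 0.13, adjusted p = 8.65e-07, limma), MVD 2.43-fold (-1.28 ± 0.25, adjusted p = 0.000786), FDPS 2.38-fold (-1.25 ± 0.14, adjusted p = 3.49e-06) and PMVK 1.42-fold (-0.51 ± 0.09, adjusted p = 0.000385). HMGCS1, MVK, IDI1 and FDFT1 had changes of -0.72, -0.61, -0.23 and -0.21 that were not called (adjusted p from 0.191 to 0.638, limma). The first 4 arrays of these genes hold both their highest and, for HMGCS1, IDI1 and FDFT1, their lowest level, with an SD of 1.37 for HMGCS1, 1.10 for IDI1 and 1.03 for MVK against 0.37 for ACAT2 and 0.09 for PMVK. Without the 9 h array all 8 members were called, against 3850 of 11907 tested probes.

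When 42 and 45 h were set against 0 and 3 h, 8 of 8 members fell, against 14.2% of all tested probes (limma). This pair of early arrays holds the highest array of every member, the low arrays of 9 and 12 h are not in the comparison, and 45 h, the lowest array of ACAT2, MVK and PMVK, is. HMGCS1 fell 3.77-fold, MVD 3.62-fold, ACAT2 3.23-fold, MVK 3.18-fold, FDPS 2.72-fold, IDI1 2.0-fold, PMVK 1.68-fold and FDFT1 1.53-fold, with adjusted p from 3.05e-08 for ACAT2 to 0.00556 for IDI1. At 45 h the levels were 24.5% of the 0 h level for MVK, 24.7% for MVD, 30.6% for ACAT2, 34.2% for FDPS, 36.7% for HMGCS1, 56.5% for PMVK, 60.0% for IDI1 and 62.1% for FDFT1. Every member was thus lower at the end of the series than in untreated cells, and PMVK reached most of its difference after 33 h.

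The other genes of the route and of its surroundings were counted in the same fits. ACAT1, the mitochondrial thiolase, and GGPS1, which makes geranylgeranyl diphosphate, had early changes of -0.13 ± 0.08 and -0.16 ± 0.10 that were not called (adjusted p = 0.235 and 0.241, limma). The spline called both as time-dependent (adjusted p = 7.95e-05 and 0.012, limma). In the last hours ACAT1 rose by 0.34 ± 0.07 (adjusted p = 0.000806, limma). GGPS1 was 0.14 ± 0.07 higher there and was not called (adjusted p = 0.142, limma). From 0 to 9 h to 36 to 45 h GGPS1 rose by 0.22 ± 0.07 (adjusted p = 0.0322, limma). ACAT1 was 0.14 ± 0.07 higher and was not called (adjusted p = 0.138, limma).

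Of 12 tested probes for 11 genes that use mevalonate products in ubiquinone, dolichol and prenylated proteins, 2 fell and 1 rose early, against 11.5% and 13.3% of all tested probes, with a median change of -0.02, so that these counts were near those of all probes. ICMT, which methylates prenylated proteins, fell by 0.81 and COQ2, which prenylates the ubiquinone precursor, by 0.31, and both rose by 12 and 15 h (0.92 and 0.55). PDSS1, a subunit of the enzyme that makes the ubiquinone tail, rose early by 1.28. Of 14 tested probes for the 12 genes after squalene, 10 fell early, against 11.5% of all tested probes, and 0 rose, with a median of -0.62. By 12 and 15 h 4 of these probes had fallen further and 1 had risen, against 10.5% and 11.2% of all tested probes. MSMO1, the C4-methyl sterol oxidase, fell most in the early hours (-1.68 ± 0.17), and 1 probe of LSS, the lanosterol synthase, fell most by 12 and 15 h (-2.42 ± 0.20), against -1.0 ± 0.16 for its other probe.

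Of 14 tested probes for 11 genes of SREBP control and sterol transport, 8 fell early, against 11.5% of all tested probes, and 0 rose, with a median of -0.52. By 12 and 15 h 4 probes of this list had fallen and 3 had risen, against 10.5% and 11.2% of all tested probes. SREBF1, which encodes an SREBP, fell by 2.10 ± 0.18 and rose by 0.75 ± 0.18. SREBF2, another SREBP gene, fell early by 0.47 ± 0.14 (adjusted p = 0.022, limma). Its change by 12 and 15 h, -0.33 ± 0.14, was not called (adjusted p = 0.108, limma). INSIG1, which holds SREBP in the endoplasmic reticulum and is itself an SREBP target, had 2 probes that differed. The brighter fell by 3.47 ± 0.13 and rose by 2.23 ± 0.13, and the other was 0.57 ± 0.25 lower early without being called (adjusted p = 0.107, limma) and then fell by 0.94 ± 0.25. In the last against the first 4 time points, 7 probes of the list after squalene fell and 0 rose, and of the SREBP list 1 fell and 3 rose, where 15% of all tested probes fell and 16.2% rose. Because each of these comparisons uses the same arrays as those of the members, they are given side by side with no test between lists.

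**Figure D4:**
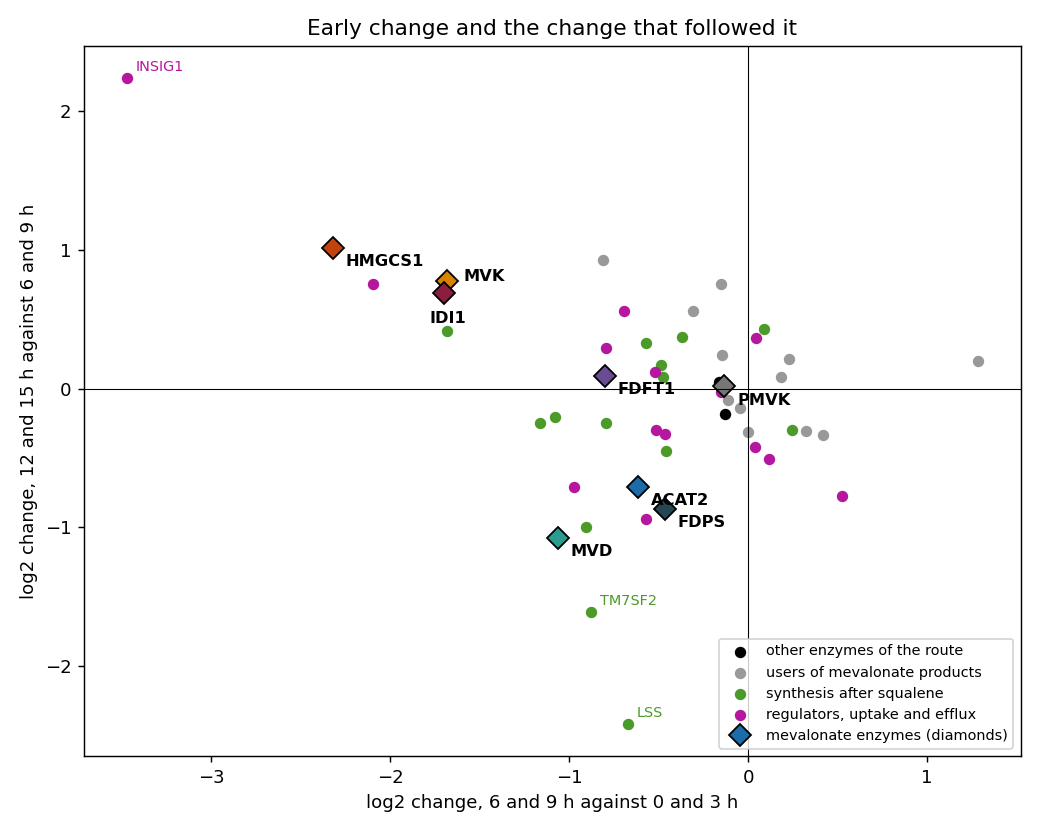
Log2 change from 0 and 3 h to 6 and 9 h (horizontal axis) and from 6 and 9 h to 12 and 15 h (vertical axis) for the 8 mevalonate enzymes (labelled diamonds) and the tested probes of 4 lists of related genes (points coloured by list). HMGCS1, MVK and IDI1 lie at the upper left and ACAT2, MVD and FDPS at the lower left, and because both axes use the 6 and 9 h arrays no correlation is read from the plot.

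The probes outside the members whose course was most like the mean of the mean-centred courses of the 8 enzymes, over 16 arrays, were those of TRIB3 (Pearson r = 0.948), HES6 (0.945), SLC25A25 (0.933), UBE2D4 (0.930), POLR2J (0.926), ATP6V1C1 (0.923), DDB2 (0.916), DHCR7 (0.915), FLJ11259 (0.913) and CRYBB2 (0.906). DHCR7, the last enzyme of 1 branch of cholesterol synthesis, was the only one of these 10 on the lists above. The mean course itself was 0.90 at 0 h and 1.06 at 3 h, 0.13 at 6 h and -0.36 at 9 h relative to its mean over the series, then lay between -0.23 and 0.18 until 33 h, and ended at -0.47 at 45 h.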

How the data were processed

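RNA from 16 cultures of MCF10A cells was measured on Illumina human Ref8v2 arrays, 1 per time point. The authors deposited bead intensity values on a linear scale, with no normalization across arrays. Beside each intensity the authors deposited a detection p-value, which compares it with the negative control beads of that array. Quality control and quantile normalization are named in the methods, and the summary software and any background correction are not given in the sources used here. Samples were grouped by their labelled time.

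Background correction was by normexp. Its negative control level was inferred from the detection p-values of the 19092 rows that step in whole multiples of 1 in 708 (within 0.001 of a step), which include all 8 members. An offset of 16 was added, followed by the log2 transform and quantile normalization (limma 3.58.1 in R 4.3.3). The offset compresses dim probes and understates their changes. Tests covered probes detected at p under 0.05 on 3 or more of 16 arrays, with Benjamini-Hochberg adjustment over all 11957, a trend in the prior variance and calls under 0.05. Fits used a spline of time with 3 degrees of freedom, 8 pairs, or 4 groups of 4 neighbouring time points, none of which are replicates, so p-values measure the spread between neighbouring arrays, and a change within a group counts as spread.

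The text names every member, genes of 4 pathway lists that passed a test or are needed to read a count, the cell type markers, and the 10 probes most like the members by Pearson r. The members and lists were chosen with earlier results of these data known. Some genes of these lists are not reported here and were left out of the counts. Promoter windows are from RefSeq (GRCh38.p14). Figures were drawn with matplotlib 3.10.9. The tests were checked on simulated data, and the alternatives were other background, offset, scaling, filter, curve, variance and array settings and leaving out each array. The MCF10HER2 arm was not analysed here.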

Additional observations from a re-analysis of the deposited data

How the results depend on the processing

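Each of the 18 called log2 changes of members kept its direction in all 440 recomputed values, and 22 of these no longer passed the test, all of them for FDPS in the early hours, MVK from 6 and 9 h to 12 and 15 h, or ACAT2 in the last hours. The number of members called went from 2 to 5 for 36 to 45 h against 24 to 33 h when only the arrays compared were fitted, and from 4 to 8 for 36 to 45 h against 0 to 9 h when 42 and 45 h were set against 0 and 3 h. Over all tested probes the calls went from 4541 to 5811 and from 3729 to 3628 in the same settings. The median ratio of the highest to the lowest array went from 4.09 to 3.023 without background correction. With 1 array left out in turn, the count was 4 to 8 for variation with time, 6 to 7 in the early hours, 4 to 6 at 12 and 15 h, 0 to 0 in the middle, 1 to 2 in the last hours and 4 to 8 for 36 to 45 h against 0 to 9 h, and the median ratio was 3.291 (without 9 h) to 4.099. A straight line called 4 members as time-dependent, without MVK and FDFT1. The ratio of HMGCS1 was 4.75 without the 3 h array.

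Over all tested probes, a straight line called 1953 and the spline 6538. The early comparison called 889 against 2960 with only its 4 arrays. Leaving out 1 array lowered this number for most arrays and raised it for others. The last against the first 4 time points called 2478 against 3729 with only its arrays. It called 1617 when the difference between 12 to 21 h and 24 to 33 h was taken out. That contrast joins 4 group means and has a larger standard error, so its lower count cannot be laid to the difference taken out. The comparison in the middle called 17 under median scaling, 12 with only its arrays and 1 without the variance trend, against 3, and 1 to 6 with 1 array left out. Median scaling moved the share of calls that were lower from 46.4% to 35.9% early, from 48.4% to 31.1% at 12 and 15 h, from 49.2% to 65.3% in the last hours and from 48.2% to 26.1% for the last against the first, and the median of all probes by less than 0.1. No paired analysis was possible because each time point has 1 array, numbered replicate 1. A chip as a block was not run, since the file names no chips. MVK is the member nearest the background, which limits the size of its lows.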
